A study of Mus musculus with 36 samples.

Results

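Axin2, Nkd1, Notum, Wif1, Dkk4, Sostdc1, Apcdd1, Lef1 and Sp5, a set of Wnt feedback inhibitors and target genes, were followed through mouse submandibular salivary glands with and without tumors. These 9 genes were chosen by name from what is known of the pathway, with earlier results of these data also known. They were found in the single-cell tables among 31102 genes. Drop-seq, which captures the RNA of single cells in droplets with a bead barcode and a unique molecular identifier (UMI) on every transcript, had been run on 26 glands. They came from 6 control and 7 double-mutant mice at postnatal day 40 (P40) and from 6 control and 7 double-mutant mice at P90. Each group held males and females. CITE-seq RNA from 2 control and 2 double-mutant glands at P70, and 1 bulk library of each genotype (control at P70, double-mutant at P100), were read as well.

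All mice, controls included, were on a C57BL/6 background and carried the K14-Cre transgene and the R26 EYFP reporter. Double-mutant mice carried in addition the gain-of-function allele of β-catenin (β-cat GOF) and a homozygous floxed Bmpr1a (Bmpr1a LOF), so that both alleles are recombined where the K14 promoter is or has been active, above all in basal epithelial cells. Any difference between genotypes therefore belongs to both alleles together, and neither can be read alone. For Drop-seq, cells had been sorted as live and intact and fixed in methanol before droplet capture.

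In the canonical Wnt pathway, a destruction complex built on Axin and APC marks β-catenin for degradation, and Wnt binding to Frizzled and LRP receptors at the cell surface stops that process. Stabilized β-catenin enters the nucleus, binds TCF/LEF factors and switches on target genes, several of which encode inhibitors of the pathway itself. Axin2 is the feedback scaffold of the destruction complex, and Nkd1 binds Dishevelled inside the cell. Outside the cell Notum removes the lipid that Wnt proteins need for activity, Wif1 binds Wnt proteins, Dkk4 and Sostdc1 act at the LRP co-receptors, and Apcdd1 is a membrane-bound inhibitor. Sostdc1 also antagonizes BMP ligands, whose receptor gene Bmpr1a is the one deleted here. Lef1 is a DNA-binding partner of β-catenin, and Sp5 is a zinc-finger repressor induced by Wnt signaling.

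In RefSeq (build GRCm38.p6, the assembly also called mm10), Sp5 spans chr2:70474923-70477726, Lef1 chr3:131110297-131224357, Wif1 chr10:121034004-121100642, and Sostdc1 chr12:36314169-36318452. Chromosome 8 holds Dkk4 (chr8:22623685-22628018) and Nkd1 (chr8:88521342-88594887), and chromosome 11 holds Axin2 (chr11:108917828-108950783) and Notum (chr11:120653788-120661193), the one gene of the set on the minus strand. RefSeq start windows were at hand for 5 of the 9 genes. The 250 bases before each start were searched on both strands for the letters CTTTGAA, for CTTTGAT, for CTTTGTA and for CTTTGTT, which are forms of the TCF/LEF motif. Of all 32851 windows of that length, 4874 (14.8%) held at least 1 of them and 469 (1.43%) held 2 or more. The window of Sp5, at chr2:70474673-70474922 on the plus strand and upstream of the gene, held 2. Lef1 has 4 windows, of which only the one at chr3:131156044-131156293, plus strand, inside an intron of the gene, held 1. No motif was found in the other 3 Lef1 windows or in the windows of Axin2, Nkd1 and Wif1, and that of Axin2 lies at chr11:108920099-108920348, plus strand, just before the first base of the gene in the GENCODE annotation. The only Nkd1 window, at chr8:88527383-88527632, lies inside an intron, so the bases before the first base of Nkd1 were not searched. The Wif1 window overlaps an annotated exon of the gene. The Sp5 and Lef1 windows are shown because they hold the motif, in capitals on the strand as printed, and the Axin2 window as one without it.
Sp5: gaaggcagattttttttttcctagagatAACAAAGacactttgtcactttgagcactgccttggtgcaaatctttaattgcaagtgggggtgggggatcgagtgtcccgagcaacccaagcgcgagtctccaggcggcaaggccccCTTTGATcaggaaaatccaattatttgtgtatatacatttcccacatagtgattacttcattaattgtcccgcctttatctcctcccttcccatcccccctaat
Lef1: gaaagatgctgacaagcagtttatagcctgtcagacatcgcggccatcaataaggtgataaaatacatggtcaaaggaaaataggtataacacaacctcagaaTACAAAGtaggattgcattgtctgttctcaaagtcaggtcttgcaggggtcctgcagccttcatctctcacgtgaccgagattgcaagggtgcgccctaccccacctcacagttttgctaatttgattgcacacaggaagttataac
Axin2: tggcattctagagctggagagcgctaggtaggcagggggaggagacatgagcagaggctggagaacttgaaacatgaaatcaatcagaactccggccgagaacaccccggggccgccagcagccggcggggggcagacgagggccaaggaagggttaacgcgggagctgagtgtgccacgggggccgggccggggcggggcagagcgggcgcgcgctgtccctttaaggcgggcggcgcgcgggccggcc
The motifs of Sp5 begin 222 and 104 bases before the start, and that of Lef1 begins 147 bases before it. A match of letters is a description of the window and says nothing of binding.

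The 26 glands gave 23346 cells after filtering out of 26987 barcodes, and the kept UMIs of a gland ranged from 650301 to 6994504. Median UMIs per cell were 2892 in control P40, 1341 in control P90, 1570 in double-mutant P40 and 766.5 in double-mutant P90 glands, so double-mutant cells were shallower at both stages. The labels give a batch for every gland, and stage and batch cannot be told apart in the controls. In 2 libraries, double-mutant P40 replicate 1 and double-mutant P90 replicate 5, sex-linked genes went against the label, and double-mutant P90 replicate 4 had a high share of ribosomal transcripts, for which the study left it out of its sub-clusters. Only 14 barcode sequences (0.120% of cells) occurred in more than 1 gland. Ctnnb1 and Bmpr1a, the targeted genes, were counted through tags near the end of the transcript, outside the deleted parts, so their levels check nothing. Their log2 differences were 0.35 (SE 0.18, adjusted p = 0.166) and -0.19 (SE 0.12, adjusted p = 0.224).

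Most of the Wnt feedback genes took a larger share of the RNA of whole double-mutant glands than of control glands. UMIs of all kept cells of a gland were summed and tested with edgeR's quasi-likelihood test, with sex and stage as covariates and Benjamini-Hochberg adjustment over all genes tested. Of 10488 genes, 1515 (14.4%) were higher and 793 (7.56%) lower in double-mutant glands at an adjusted p under 0.05. Of the 9 genes, 7 had enough counts to be tested, and 6 of these were higher and none lower. Axin2, Nkd1, Wif1 and Dkk4 had enough counts only through the double-mutant glands, so they could only be called higher. No control gland held more than 9 UMIs of any of them. The median log2 difference of the 7 was 3.33, against 0.02 over all genes. Scaling by library size alone, without the TMM factors, gave 5532 higher and 51 lower genes and moved the median of all genes to 0.68, and under it the log2 differences of the 6 genes ran from 3.45 (Notum) to 7.68 (Wif1) and Lef1 was called as well (1.80, adjusted p = 0.0134). In a whole-gland sum, fewer cells of a type and less RNA per cell cannot be told apart.

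Wif1 was nearly absent from control glands. In UMIs of the gene per 1000000 UMIs of the library (CPM), its level per gland was 0 at the lowest, 0.0715 at the median and 0.860 at the highest of the 6 control P40 glands, and 0, 0 and 2.13 in the 6 control P90 glands. In double-mutant glands the lowest, median and highest were 0.768, 27.5 and 266 at P40 and 0.255, 53.2 and 283 at P90. Single double-mutant glands at each stage fell inside the control range, whereas all others lay above it. The log2 difference was 6.82 (SE 0.87, adjusted p = 1.63e-05), and the mean level rose from 0.386 ± 0.677 CPM (SD, n = 12) to 86.0 ± 103 (SD, n = 14), with a permutation p of 0.00146 from 100000 resamples.

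Axin2 had at least 1 UMI in 9 of 12 control glands and in all 14 double-mutant glands. It measured 0, 0.464 and 3.44 CPM (lowest, median, highest) in control P40 glands and 0, 1.36 and 2.38 in control P90 glands. The corresponding double-mutant values were 1.69, 4.38 and 39.98 at P40 and 5.60, 18.2 and 79.5 at P90, so the groups overlapped at P40 and not at P90. The log2 difference was 3.33 (SE 0.49, adjusted p = 9.85e-05).

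Nkd1 showed the same order of groups. Its lowest, median and highest levels were 0, 0.105 and 3.87 CPM in control P40 glands and 0, 1.27 and 3.45 in control P90 glands. They were 3.07, 6.76 and 19.8 in double-mutant P40 glands and 8.40, 31.4 and 64.8 in double-mutant P90 glands. As for Axin2, every double-mutant gland at P90 exceeded every control gland. The log2 difference was 3.48 (SE 0.49, adjusted p = 5.5e-05).

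Notum was the one inhibitor detected in every gland. Control glands ranged from 0.143 to 5.16 CPM at P40 (median 0.466) and from 0.391 to 4.60 at P90 (median 1.18). Double-mutant glands ranged from 1.07 to 49.2 at P40 (median 11.7) and from 2.80 to 75.2 at P90 (median 16.4), with some overlap at both stages. The log2 difference was 2.64 (SE 0.49, adjusted p = 0.0007).

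Dkk4 was found almost only in double-mutant glands. A single UMI, in control P90 replicate 5, was found in the 12 control glands, against 131 UMIs in the double-mutant glands, where 11 of 14 glands held at least 1. Double-mutant levels were 0, 3.08 and 7.31 CPM at P40 and 0, 9.55 and 40.5 at P90. The ratio of the pooled levels was 163, with a 95% counting interval of 28.7 to 6482 that covers counting error only. By edgeR Dkk4 was higher (adjusted p = 0.000232), though it had enough counts to be tested only through the double-mutant glands. Its fitted log2 value of 5.67 (SE 0.92) rests on that single control UMI.

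Sostdc1, unlike Dkk4 and Wif1, was well measured in controls. Its lowest, median and highest levels were 0, 1.27 and 11.2 CPM in control P40 glands and 0, 1.86 and 10.3 in control P90 glands. Double-mutant glands measured 4.45, 27.9 and 164 at P40 and 1.53, 39.8 and 199 at P90, which overlaps the control range at both stages. The log2 difference was 3.01 (SE 0.61, adjusted p = 0.00159).

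Lef1 differed less. Control glands had medians of 0.707 CPM at P40 (0 to 5.59) and 0.575 at P90 (0 to 4.69), and double-mutant glands had medians of 3.92 at P40 (0.461 to 8.63) and 3.89 at P90 (0.255 to 12.5). The log2 difference of 1.17 (SE 0.47) did not pass in edgeR (adjusted p = 0.0695), whereas the permutation test of the mean CPM gave p = 0.00995, unadjusted. Leaving out control P40 replicate 1, the highest control gland, or double-mutant P90 replicate 7, the lowest double-mutant gland, brought the adjusted p under 0.05, with a lowest value of 0.0230.

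Sp5 and Apcdd1 were too sparse for the filter on low counts. Sp5 had 3 UMIs in the control and 39 in the double-mutant glands, a ratio of pooled levels of 16.2 (95% counting interval 5.14 to 81.8), and Apcdd1 had 3 and 18 UMIs, a ratio of 7.46 (2.18 to 39.5). Both were at 0 in 9 of 12 control and 4 of 14 double-mutant glands. Permutation over all glands gave p = 0.00244 for Sp5 and p = 0.00417 for Apcdd1, unadjusted. In a fit without the filter, Sp5 reached an adjusted p of 0.00126 and Apcdd1 of 0.0775.

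**Figure D1:**
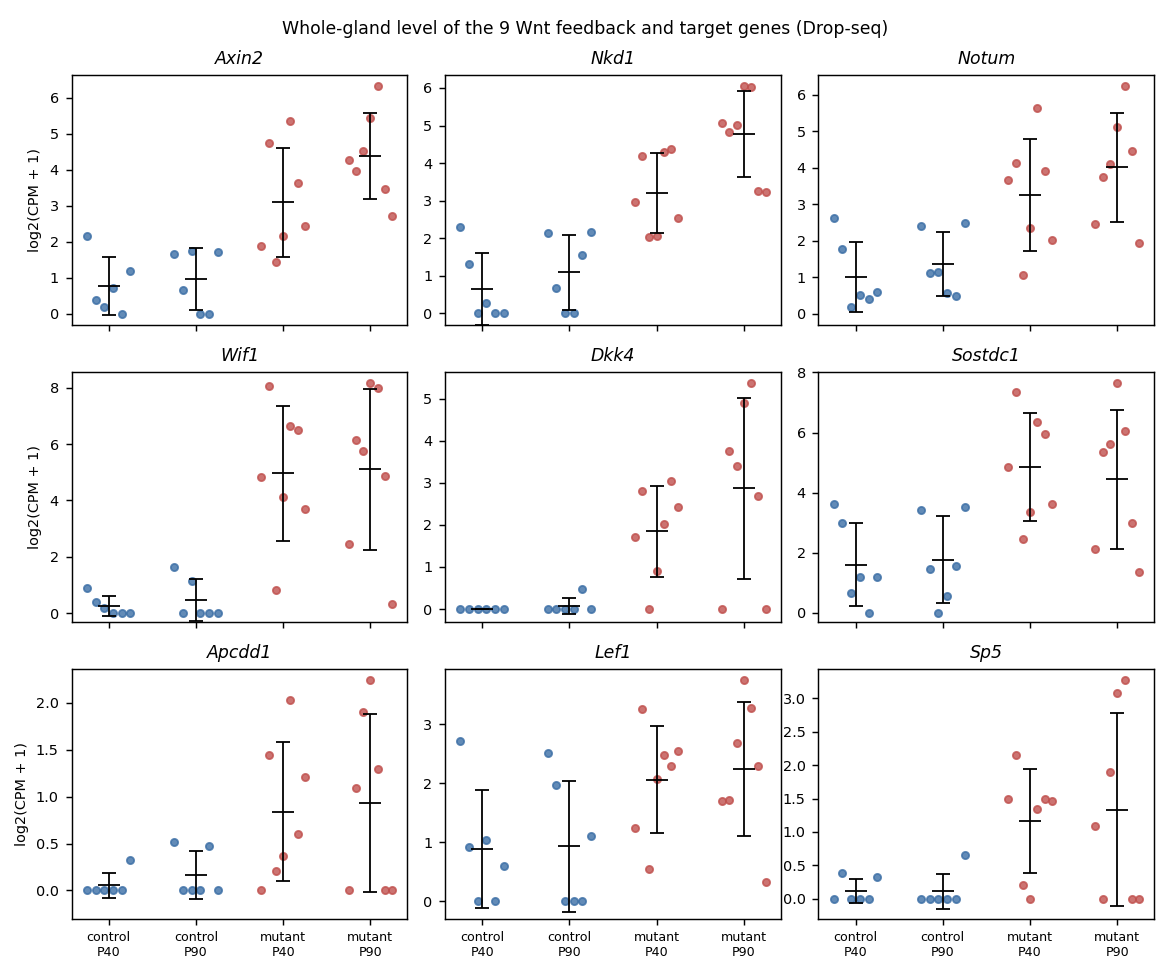
Level of the 9 genes in each of the 26 Drop-seq glands, as log2(CPM + 1) on the vertical axis of each panel, by group on the horizontal axis ("mutant" stands for double-mutant). Points are glands and bars are the mean and SD of the log2 values; at P90 all 7 double-mutant glands sit above the 6 control glands for Axin2 and Nkd1, while Lef1 and Sostdc1 overlap.

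Within single batches the direction was the same almost throughout. In the 5 batches that held both genotypes, the mean of the double-mutant glands exceeded that of the control glands in 5 of 5 batches for Axin2, Nkd1, Notum, Wif1, Dkk4, Apcdd1 and Lef1, and in 4 of 5 for Sostdc1 and Sp5. Control and double-mutant glands of a batch did not overlap in any of the 5 for Axin2 and Wif1. A batch held only 1 to 3 glands of a genotype, and no count over all genes was set beside these, so they are a description. With batch in place of stage in the fit over these glands, the same 6 genes were called, with log2 differences of 2.92 (Axin2), 3.30 (Nkd1), 2.58 (Notum), 7.17 (Wif1), 6.33 (Dkk4) and 2.75 (Sostdc1). The share of all genes called in that fit is not reported here, and Axin2, Nkd1, Wif1 and Dkk4 again could only be called higher.

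At each stage alone the fits had fewer calls. At P40, 25 of 10213 genes (0.245%) were higher, and of the 6 genes of the set that could be tested only Wif1 was (log2 7.33, SE 1.15, adjusted p = 0.0163). That call was lost without control P40 replicate 4 or without replicate 6, the highest adjusted p being 0.0723. Wif1 had enough counts at P40 only through the double-mutant glands, so it could only be called higher. The other values at P40 were 2.94 for Axin2 (adjusted p = 0.0780), 3.13 for Nkd1 (adjusted p = 0.0728), 2.56 for Notum (adjusted p = 0.0994), 3.12 for Sostdc1 (adjusted p = 0.0773) and 0.97 for Lef1 (adjusted p = 0.29985). DESeq2, with 544 higher and 137 lower genes at P40, called the first 4 of these, with adjusted p from 0.00174 to 0.0146. At P90, 324 of 9094 genes (3.56%) were higher, and 4 of the 5 genes tested were: Axin2 (3.75, adjusted p = 0.00426), Nkd1 (3.76, adjusted p = 0.00371), Notum (2.79, adjusted p = 0.0123) and Wif1 (6.41, adjusted p = 0.0123). All 4 had enough counts at P90 only through the double-mutant glands, so they could only be called higher. Sostdc1 at P90 was 2.99 (adjusted p = 0.0587). Scaling by library size alone gave 785 higher and 40 lower genes at P90, where 122 were lower with the TMM factors.

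Exact permutation tests of the mean CPM within each stage, over all arrangements of 6 against 7 glands, two-sided and unadjusted, gave p between 0.00758 (Nkd1) and 0.0420 (Axin2) at P40 for the genes other than Lef1, which had p = 0.0903. At P90 the same exact test gave p = 0.00466 for Axin2, 0.00524 for Nkd1, 0.0111 for Notum, 0.0268 for Wif1, 0.0373 for Dkk4 and 0.0495 for Sostdc1. With CPM scaled by the TMM factors, Sostdc1 at P90 no longer passed (exact p = 0.0536). Apcdd1 (exact p = 0.103), Lef1 (exact p = 0.0810) and Sp5 (exact p = 0.119) did not pass at P90. Without the pair of libraries whose sex-linked genes go against their labels, Dkk4 and Sostdc1 at P90 were at exact p = 0.0606 and 0.0974.

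The difference between genotypes was not shown to change from P40 to P90. The interaction of genotype and stage was called for 1 of 11420 genes (0.00876%, lower), which was none of the set, and the fitted values ran from -0.89 (Wif1, SE 2.04) to 0.83 (Axin2, SE 1.06). Between P40 and P90 double-mutant glands, edgeR called 0 of 9857 genes, with 586 at an unadjusted p under 0.05, and DESeq2 called 3. Nkd1 had the lowest p of the set in that comparison, with a P90 level higher by 1.498 on the log2 scale (SE 0.46), an unadjusted p of 0.00530 and an adjusted p of 0.832. Axin2 followed with 1.05 (SE 0.54, adjusted p = 0.859).

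To see which cells held these transcripts, cells were clustered with the 9 genes left out, and clusters were named from marker lists. A cluster of 294 cells carried 5 of the 6 markers of the cancer stem cell-like (CSC-like) population, Ptn, Bmp2, Bmp4, S100a14 and Krt17, and 291 of its cells were from double-mutant glands. The basal-like cluster (Krt5, Krt14, Krt15, Trp63, Col17a1) had 374 control and 1023 double-mutant cells. Within it lay a sub-cluster of 688 cells, 685 of them double-mutant, that carried 5 of 7 markers of basal tumor cells, Sparc, Ctgf, Bgn, Meg3 and Igfbp5. The CSC and basal tumor lists were drawn up by the study on these same glands, so the near absence of control cells there is no independent result. Comparisons between clusters are given as descriptions, since all come from the same cells.

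CSC-like cells held the largest share of the double-mutant UMIs for 7 of the 9 genes. Though only 291 cells, they held 89.3% of the UMIs of Dkk4, 72.2% of Apcdd1, 59.0% of Sp5, 52.4% of Notum, 47.8% of Lef1, 43.1% of Axin2 and 37.3% of Nkd1. The exceptions were Wif1, with 28.8% in CSC-like and 53.5% in basal-like cells, and Sostdc1, with 0.971% in CSC-like and 80.6% in basal-like cells. For Axin2 the order of named populations in double-mutant glands was CSC-like cells at 597 CPM (95% counting interval 506 to 699), then basal-like cells at 34.0 (22.6 to 49.2), pericyte-like cells at 31.1 (8.48 to 79.6) and myoepithelial-like cells at 30.5 (8.32 to 78.2). The intervals of the last 3 overlap, and all lie far under that of CSC-like cells.

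The order differed for the other genes below the top. Nkd1 measured 674 CPM (578 to 782) in CSC-like cells, followed by myoepithelial-like cells at 76.3 (36.6 to 140) and pericyte-like cells at 62.2 (26.9 to 123), which overlap. Notum measured 639 (546 to 745) in CSC-like and 55.9 (40.9 to 74.6) in basal-like cells. Wif1 measured 1589 (1439 to 1750) in CSC-like, 925 (860 to 993) in basal-like, 244 (197 to 298) in fibroblast-like and 145 (87.3 to 227) in myoepithelial-like cells. Of the 94 fibroblast-like UMIs, 54.3% were from a single gland, double-mutant P40 replicate 6. Sostdc1 led in basal-like cells at 908 (844 to 976), with myoepithelial-like cells at 503.9 (390 to 641) and CSC-like cells at 34.9 (15.9 to 66.2).

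Within the basal-like cluster of double-mutant glands, the basal tumor-like sub-cluster held 732 of 761 Wif1 UMIs (96.2%) and 688 of 747 Sostdc1 UMIs (92.1%), at levels of 1638 and 1540 CPM. Of the sparser genes it held 20 of 28 basal-like UMIs of Axin2, 17 of 23 of Nkd1, 27 of 46 of Notum and 3 of 20 of Lef1. Their levels there were lower. Axin2 was at 44.8 CPM, Nkd1 at 38.0, Notum at 60.4 and Lef1 at 6.71, and Dkk4 had a single UMI in 685 cells. A further cluster, luminal Clu+-like cells, was also almost all double-mutant (369 of 374 cells) and held few of these transcripts. Wif1 was at 53.8 CPM there with 24 UMIs, Axin2 at 15.7 with 7, and Dkk4, Lef1, Apcdd1 and Sp5 had 0. Wif1 was thus high in CSC-like and basal tumor-like cells, Sostdc1 in basal tumor-like and, at a lower level, myoepithelial-like cells, and Dkk4 in CSC-like cells.

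**Figure D2:**
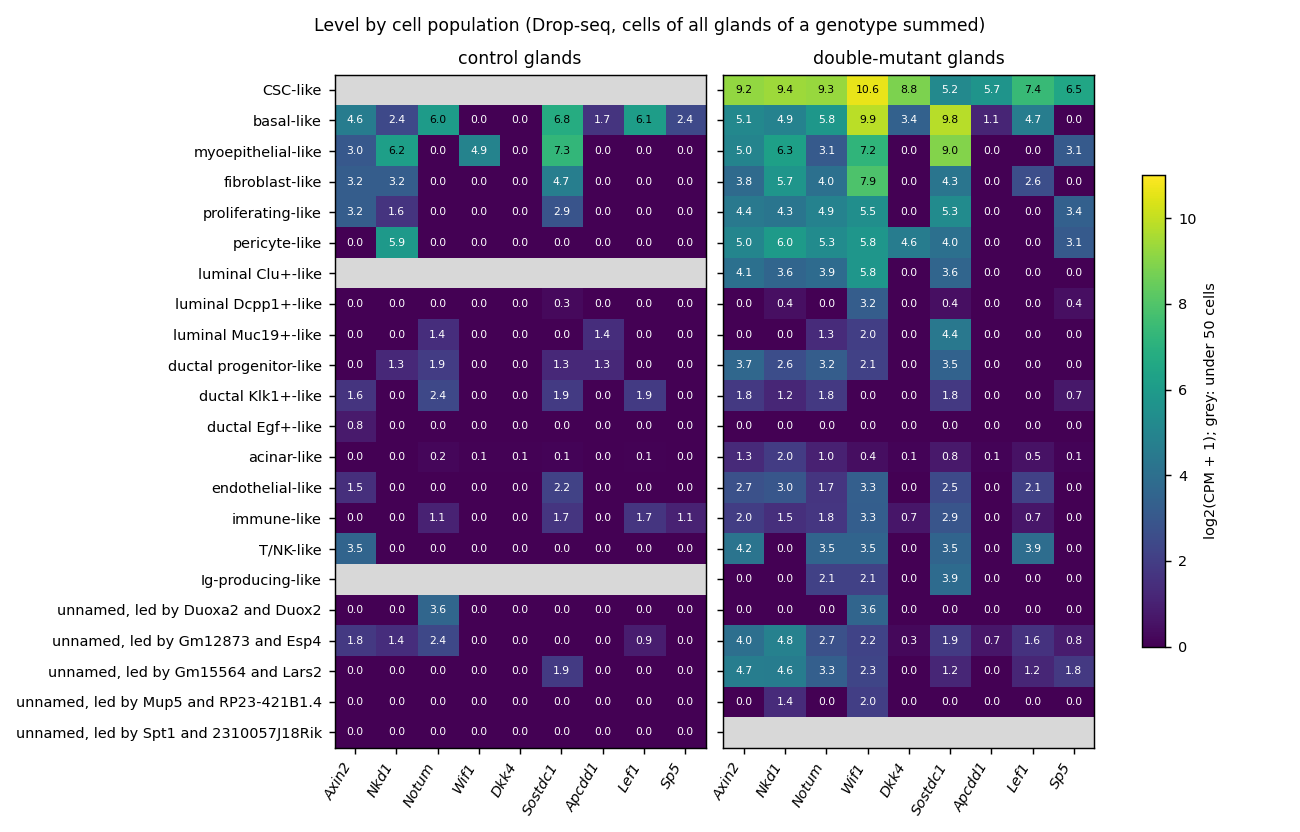
Heat map of the level of the 9 genes (columns) in each population (rows) in control and double-mutant glands, coloured by log2(CPM + 1) of UMIs pooled over glands; populations under 50 cells are grey. Dkk4 stands out in double-mutant CSC-like cells alone, Sostdc1 in basal-like and myoepithelial-like cells, and Wif1 in CSC-like, basal-like and fibroblast-like cells.

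CSC-like cells fell into a sub-cluster of 142 double-mutant cells with basal keratins (Krt5, Krt14 and Trp63 among its markers) and another of 149 led by Pla2g2a, at similar median depths of 759 and 729 UMIs. Dkk4 was at 733 CPM in the first and 183 in the second, Wif1 at 2318 and 884, Lef1 at 244 and 99.1, and Axin2 at 741 and 457. Nkd1 went the other way, with 394 CPM in the first and 945 in the second. Notum was closer in level, at 702 and 579 CPM.

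Pooled levels within CSC-like cells were much alike at the 2 stages. Pooled over 96 cells at P40 and 195 at P90, Axin2 was at 569 (441 to 723) and 620 CPM (496 to 764), Wif1 at 1589 (1370 to 1834) and 1588 (1387 to 1811), and Dkk4 at 442 (330 to 580) and 463 (357 to 590), with overlapping counting intervals for all 9 genes. These intervals cover counting error only and leave out the spread between glands, and stage was not tested within these cells. Of the 195 P90 cells, 72 were from replicate 5 and 63 from replicate 4. All 12 double-mutant glands that held CSC-like cells had Axin2, Nkd1, Notum and Wif1 UMIs in them, and 11 of 12 had Dkk4 and Lef1 UMIs. No gland gave more than 27.6% of the CSC-like UMIs of Axin2, Nkd1, Notum, Wif1, Dkk4, Lef1 or Sp5.

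The share of cells with a UMI was compared after each cell had been thinned to 500 UMIs, which left 192 of 291 CSC-like cells. Wif1 was found in 37.5% of these (95% binomial interval 30.6 to 44.8), Nkd1 in 27.1% (20.9 to 34.0), Axin2 in 26.04% (19.99 to 32.9), Notum in 23.4% (17.6 to 30.1), Dkk4 in 10.9% (6.90 to 16.2) and Lef1 in 7.29% (4.04 to 11.9). In basal tumor-like cells the shares were 36.7% for Wif1 (31.5 to 42.1) and 39.3% for Sostdc1 (34.1 to 44.8), against 2.66% for Axin2 (1.22 to 4.99). Sostdc1 was also found in 29.3% of double-mutant (19.7 to 40.4) and 18.5% of control myoepithelial-like cells (12.1 to 26.5). The double-mutant interval overlaps that of basal tumor-like cells. Acinar-like cells, taken as the background, gave at most 0.135% for any of them in double-mutant glands, over 2222 cells, and none in 4102 control cells (upper end of the interval 0.0899%). Before thinning, 232 of 291 CSC-like cells (79.7%) had a UMI of at least 1 of the 9 genes and 170 (58.4%) of 2 or more, against 377 of 685 (55.0%) and 146 (21.3%) of basal tumor-like cells and 70 of 2295 acinar-like cells (3.05%) with at least 1. Median depths differed between these populations, 740.5 UMIs in CSC-like and 498 in basal tumor-like cells.

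**Figure D3:**
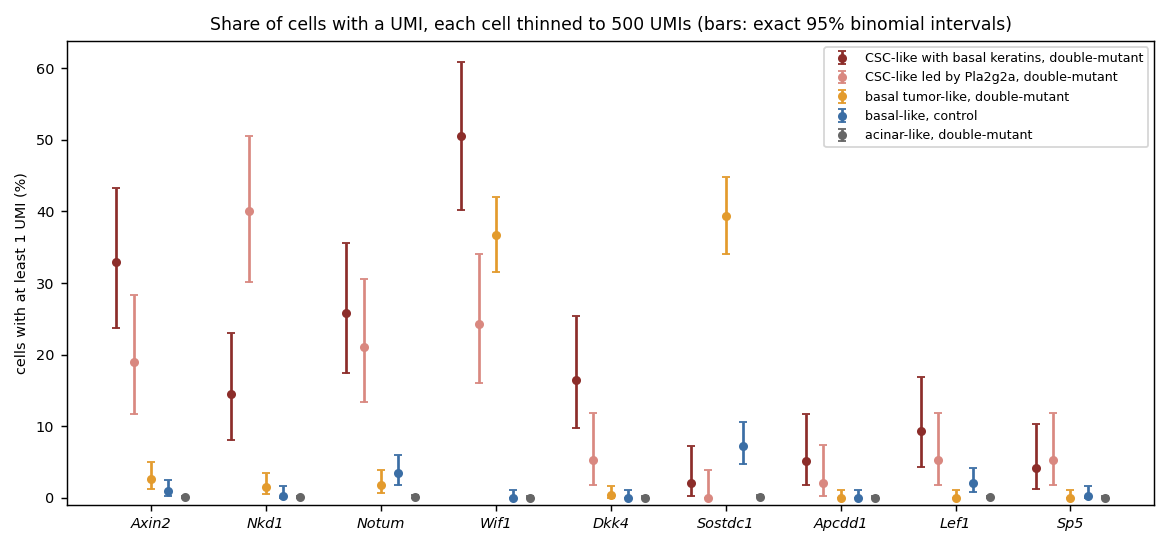
Percent of cells with at least 1 UMI of each gene after thinning every cell to 500 UMIs, for 5 populations; bars are exact 95% binomial intervals and cover counting error only. Wif1 is high in both CSC-like sub-clusters and in basal tumor-like cells, and acinar-like cells stay at or under 0.135%. Of the 5 populations shown, Sostdc1 is highest in basal tumor-like cells. Myoepithelial-like cells, which also hold Sostdc1, are not shown.

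In control glands basal-like cells held the most UMIs of Lef1, Notum, Sostdc1 and Axin2, and myoepithelial-like cells those of Nkd1 and Wif1. Lef1 was found mainly in basal-like cells, with 32 of its 41 control UMIs (78.0%) and a level of 69.5 CPM (47.5 to 98.1). Notum was also highest there, with 30 of 51 UMIs and a level of 65.2 CPM (44.0 to 93.0). Sostdc1 was at 111 CPM in basal-like cells (82.5 to 146) and 156 in myoepithelial-like cells (113 to 211), whose intervals overlap. Nkd1 was in myoepithelial-like cells at 72.8 CPM (20 of 35 UMIs) and in pericyte-like cells at 60.8 (8 UMIs). Of the 11 control Wif1 UMIs, 8 were in myoepithelial-like cells and 0 in basal-like cells. Axin2 was spread thinly, with 11 of 32 UMIs in basal-like cells.

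Basal-like cells, the type in which the K14 promoter is active, allowed a comparison of genotypes within a named type. Over 8 control and 13 double-mutant glands with at least 10 such cells, edgeR called 106 of 1303 genes (8.14%) higher and 24 (1.84%) lower in double-mutant glands. Both genes of the set with enough counts, Wif1 and Sostdc1, were higher, but for Wif1 no other call was possible. Without a control UMI, it had enough counts only through the double-mutant glands. Wif1 had no UMI in the basal-like cells of any control gland and was at 735 CPM at the median of the 13 double-mutant glands (0 to 1956). Pooled over cells, its level was at least 142-fold higher than that of 3 UMIs over all control basal-like cells (adjusted p = 0.000416). Sostdc1 rose from 102 ± 55.9 CPM (SD, n = 8) to 792 ± 585 (SD, n = 13), a log2 difference of 2.76 (SE 0.49, adjusted p = 0.000541). The highest control gland was at 164 CPM and the lowest double-mutant gland at 147, so the ranges met only at their ends.

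These calls depend on which cells are called basal-like. Of the 1023 double-mutant cells, 685 were in the basal tumor-like sub-cluster, and without that sub-cluster 11 of 771 genes were called, and neither Wif1 nor Sostdc1 had enough counts to be tested. With a graph of 19 neighbours in the clustering, edgeR called 0 of 691 genes, with 53 at an unadjusted p under 0.05, and neither gene was tested. In that graph a cluster of 1111 cells led by Sostdc1 took the myoepithelial name, and the basal-like cluster had 502 cells. Scaling by library size alone gave 119 higher and 6 lower genes. Permutation tests of the mean CPM per gland, chosen after the data had been seen, gave p = 0.00152 for Wif1 and p = 0.00311 for Sostdc1 over all basal-like cells, and p = 0.00561 and p = 0.192 outside the tumor sub-cluster. Lef1 was lower in double-mutant basal-like cells, at 22.6 ± 34.6 CPM (SD, n = 13) against 83.5 ± 83.9 (SD, n = 8), with permutation p = 0.0196 over all basal-like cells and p = 0.0726 outside the tumor sub-cluster, both unadjusted. Axin2 (permutation p = 0.457) and Notum (permutation p = 0.656) did not differ beyond the spread between glands, and Nkd1 had p = 0.0364 on 2 control and 23 double-mutant UMIs.

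Double-mutant UMIs of several genes were also found outside the CSC-like and basal-like clusters. There were 270 of Nkd1, 251 of Wif1, 175 of Axin2, 171 of Sostdc1 and 104 of Notum. A cluster that met no marker list, led by Gm12873 and Esp4 with Smgc also among its leading genes, held 80 Axin2 UMIs (22.4% of the double-mutant total) and 145 Nkd1 UMIs (31.0%) in 1283 double-mutant cells, against 3 and 2 in 464 control cells. Its double-mutant level per gland was higher for Nkd1 (15.6 ± 16.5 CPM against 2.27 ± 5.22, SD, n = 14 and 11, permutation p = 0.0141) but not beyond the spread for Axin2 (permutation p = 0.151). A single gland, double-mutant P90 replicate 1, gave 60.7% of these Nkd1 and 58.8% of these Axin2 UMIs. In acinar-like cells, Nkd1 had 38 UMIs in double-mutant and 0 in control glands, at least 22.9-fold higher against 3 UMIs over the control group, and 10 of 14 double-mutant glands contributed (permutation p = 0.0019).

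Within acinar-like double-mutant cells there were 4 Wif1 UMIs beside the 38 of Nkd1, whereas CSC-like cells held 410 Wif1 and 174 Nkd1 UMIs, so the 2 genes stood in opposite proportion in these populations.

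Cells outside the CSC-like and basal-like clusters were also summed per gland and tested with edgeR, a test added after the data had been seen. Of 10202 genes, 1432 (14%) were higher and 719 (7.05%) lower in double-mutant glands. Of the 9 genes 4 had enough counts, and 3 of these, Wif1, Axin2 and Nkd1, were higher. These 3 had enough counts only through the double-mutant glands, so they could only be called higher. Their highest control gland was at 2.23 CPM for Wif1, 1.77 for Axin2 and 3.98 for Nkd1. Wif1 had a log2 difference of 4.69 (SE 0.86, adjusted p = 0.000654), Axin2 of 2.90 (SE 0.58, adjusted p = 0.00138) and Nkd1 of 2.64 (SE 0.52, adjusted p = 0.00131). Sostdc1, at 1.38 (SE 0.54, adjusted p = 0.0678), did not pass, but did with DESeq2 (adjusted p = 0.0348), with library size alone (adjusted p = 0.0188) and without double-mutant P90 replicate 1 (adjusted p = 0.0296). Scaling by library size alone gave 4649 higher and 49 lower genes and moved the median log2 difference of all genes from 0.0075 to 0.60. Mean levels in these cells, in CPM scaled by library size, were 9.85 ± 8.09 against 1.21 ± 1.51 for Nkd1 and 8.40 ± 9.83 against 0.586 ± 0.618 for Axin2, as mean ± SD over 14 and 12 glands. Notum, not among the genes tested, was at 5.10 ± 4.45 against 0.632 ± 0.768 CPM. RNA released from broken cells into the droplets was not measured, and its part in these levels was not tested.

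Double-mutant glands differed widely in how many CSC-like and basal tumor-like cells they held. CSC-like cells made up 0% to 7.36% of the cells of a double-mutant gland and basal tumor-like cells 0% to 24.5%, against at most 0.156% and 0.184% in a control gland. The gland richest in both, double-mutant P90 replicate 4, also had the highest level of Wif1 (283 CPM), Nkd1 (64.8), Sostdc1 (199), Lef1 (12.5) and Apcdd1 (3.74), and replicate 5 of the same group, the next in CSC-like cells at 5.96%, had the highest level of Axin2 (79.5), Notum (75.2), Dkk4 (40.5) and Sp5 (8.67).

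Some double-mutant glands had few or no CSC-like and basal tumor-like cells. P40 replicate 3 held 0 CSC-like and 0 basal tumor-like cells, P90 replicate 7 held 0 and 1, and P90 replicate 1 held 5 and 7. They also held 1, 2 and 18 luminal Clu+-like cells. Dkk4 was at 0 in each of them, and Wif1 had 5, 1 and 16 UMIs. Axin2 was found with 11, 22 and 65 UMIs and Nkd1 with 20, 33 and 115, of which 6, 14 and 47 (Axin2) and 9, 22 and 88 (Nkd1) lay in the cluster led by Gm12873. That cluster made up 6.23%, 11.9% and 32.7% of the cells of these glands. Per depth, P40 replicate 3 was at 1.69 CPM for Axin2 and 3.07 for Nkd1, inside the control P40 range (up to 3.44 and 3.87). P90 replicate 7 was at 5.60 and 8.40 CPM, the lowest of its group but above the highest control P90 glands (2.38 and 3.45). P40 replicates 4 and 7, with 6 CSC-like cells each, had 3 and 10 Dkk4 UMIs. Axin2 and Nkd1 were detected in all 14 double-mutant glands.

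**Figure D4:**
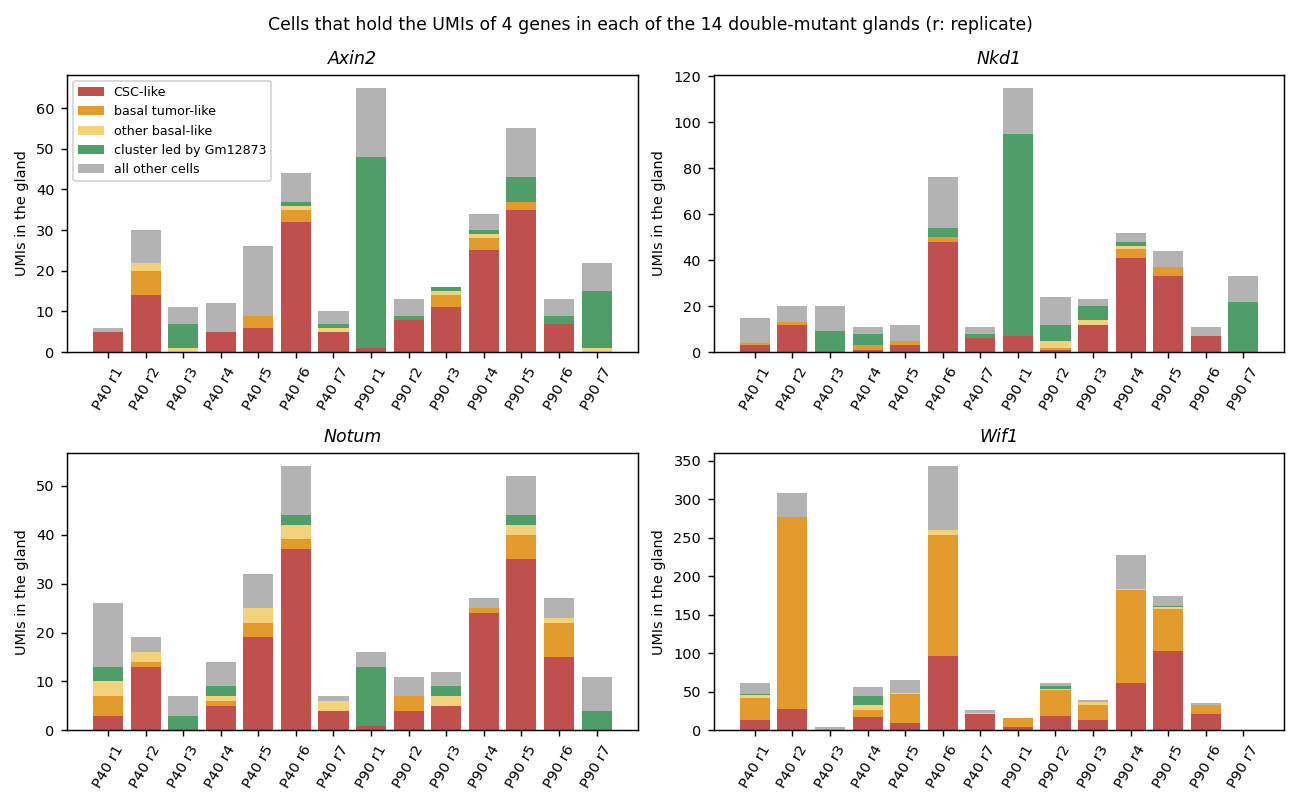
UMIs of Axin2, Nkd1, Notum and Wif1 (vertical axes, counts) in each of the 14 double-mutant glands, stacked by the population of the cells that held them. Wif1 is held by CSC-like and basal tumor-like cells in most glands, while in P90 replicate 1 the cluster led by Gm12873 holds 47 of 65 Axin2 and 88 of 115 Nkd1 UMIs.

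The CITE-seq glands at P70 gave a further set of animals, all female except for 1 control. Of 10058 genes tested, 929 (9.24%) were higher in the double-mutant pair, among them Nkd1, Wif1 and Notum. Nkd1 and Wif1 had enough counts only through the double-mutant glands, so they could only be called higher. Nkd1 had 0 and 0 UMIs in the control glands and 18 and 10 in the double-mutant glands, at least 20.8-fold higher against 3 UMIs over both controls (adjusted p = 0.00836). Wif1 had 0 and 0 against 24 and 11, at least 26.03-fold higher (adjusted p = 0.00772). Notum had 3 and 4 against 14 and 8 UMIs, a log2 difference of 2.06 (SE 0.51, adjusted p = 0.0353), which was lost when any of the 4 glands was left out and with DESeq2 (adjusted p = 0.268). Axin2 and Lef1 did not have enough counts to be tested, and the double-mutant libraries held fewer UMIs. Axin2 had 3 and 3 against 4 and 4 UMIs, which is 1.72 and 1.36 CPM in controls and 3.63 and 5.97 in double-mutant glands. Lef1 had 8 and 14 against 5 and 10 UMIs, which is 4.58 and 6.35 against 4.54 and 14.9 CPM.

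Dkk4 was at 0 in all 4 CITE-seq glands, which at 3 UMIs allows up to 2.72 and 4.48 CPM in the double-mutant glands. Sostdc1 had 6 and 0 UMIs in the double-mutant glands (5.45 and 0 CPM) against 8 and 1 in the controls (4.58 and 0.453 CPM). Krt14 was also low in these double-mutant glands, at 9.08 and 0 CPM against 18.9 and 23.6 in the controls, and its part in the values of the basal genes was not tested.

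**Figure D5:**
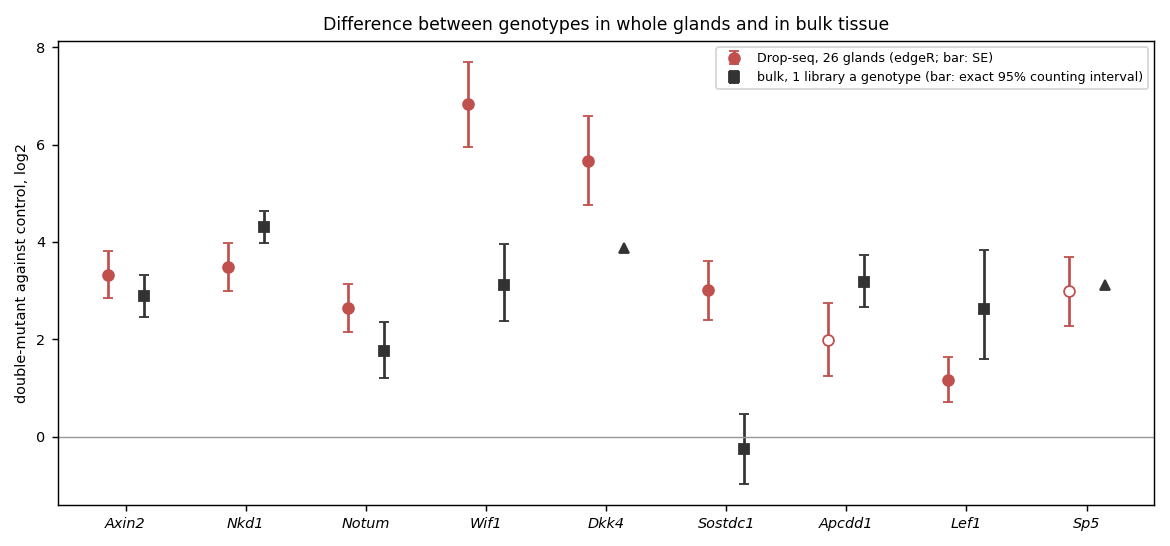
Difference between double-mutant and control as log2, per gene. Circles with SE bars are edgeR estimates over 26 Drop-seq glands (open for Apcdd1 and Sp5, from the fit without a filter), and squares with exact 95% counting intervals are ratios of 1 bulk library each; triangles are lower bounds for Dkk4 and Sp5, which had no bulk count in the control. Sostdc1 is at a log2 of 3.01 in Drop-seq and at a ratio of 0.841 in bulk.

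Bulk RNA of freshly dissected tissue, 1 library a genotype, compares those libraries only, and its intervals cover counting error. The control library was from P70 and the double-mutant library from P100, so genotype and age cannot be told apart. Of 14552 genes with enough counts, 872 (5.99%) were at least 2-fold higher and 1636 (11.2%) at least 2-fold lower in the double-mutant library, and 8 of the 9 genes were among the higher. Nkd1 went from 82 to 1630 counts, a 19.8-fold difference in CPM (15.8 to 24.97), Apcdd1 from 34 to 308 (9.003-fold, 6.31 to 13.2), Wif1 from 16 to 140 (8.70-fold, 5.17 to 15.6), Axin2 from 52 to 386 (7.38-fold, 5.51 to 10.1), Lef1 from 9 to 56 (6.18-fold, 3.04 to 14.2) and Notum from 35 to 120 (3.41-fold, 2.32 to 5.12). Dkk4 and Sp5 had 0 counts in the control library and 44 and 26 in the double-mutant library, at least 14.6-fold and 8.61-fold higher.

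Sostdc1 was the exception in bulk, with 39 counts in the control and 33 in the double-mutant library, a ratio of 0.841 (0.513 to 1.37). Krt5 and Krt14 were also lower in the double-mutant library, with ratios of 0.419 (0.352 to 0.498) and 0.757 (0.658 to 0.870). Their part in the Sostdc1 value was not tested. In CPM per kilobase of exon, Nkd1 had the highest level of the set in the double-mutant library at 10.5, followed by Apcdd1 at 3.17 and Axin2 at 2.02, and Lef1 had the lowest at 0.183. Apcdd1, the sparsest of the set in Drop-seq, was thus the second most abundant per length in bulk. The counting did not use strand, so reads of antisense transcripts at these loci could not be told apart.

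Other Wnt genes had a smaller median difference than the set. The set was chosen with earlier results of these data known, so the contrast is a description and no test. Of 113 other Wnt genes in 5 lists, 55 were tested in whole glands, of which 17 were higher and 2 lower, with a median log2 difference of 0.46 against 0.02 over all genes. Among other Wnt inhibitors, 5 of 10 tested were higher and none lower, among them Dkk2 (log2 4.64, SE 0.86, adjusted p = 0.000748), the secreted Wnt binder Sfrp1 (2.21, SE 0.47, adjusted p = 0.00243), Dkk3 (1.99, adjusted p = 0.00692) and the corepressor Tle4 (1.51, adjusted p = 0.00241). Of the ligands, 3 of 21 could be tested and 1 was higher, Wnt5a (3.30, SE 0.75, adjusted p = 0.00397). Receptors and R-spondins had 3 of 9 higher, among them Lgr6 (1.82, adjusted p = 0.0287), and the destruction complex and nuclear effectors 3 of 18. Of 15 other target genes, 5 were higher, such as Prox1 (3.73, adjusted p = 0.000890), Bmp4 (2.99, adjusted p = 0.00140) and Ephb3 (1.67, adjusted p = 0.0175), and 2 lower, such as Fgf9 (fell by 1.75 on the log2 scale, adjusted p = 0.00674). The bulk libraries went the other way for Bmp4 (ratio 0.365, 0.242 to 0.540) and Lgr6 (0.602, 0.450 to 0.801). They went the same way for Dkk2, Dkk3, Sfrp1, Prox1, Ephb3 and Fgf9, and the intervals of Tle4 and Wnt5a included equal levels.

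Bmp4 is also among the CSC markers used for naming. At P40 none of 50 tested Wnt list genes passed, and at P90 3 of 45 were higher. In basal-like cells 2 of 13 were higher, Sfrp1 (3.95, SE 0.65, adjusted p = 0.000397) and the transcription factor gene Sox9 (1.43, SE 0.30, adjusted p = 0.00248).

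The genes most like each of the set were looked for by Pearson's r of log2(CPM + 1) over the 17 named populations, among 12241 genes and as a description only, since the populations share libraries. Axin2 and Notum were each other's closest (r = 0.934). Nkd1 was closest to the plasminogen activator gene Plat (r = 0.902), Wif1 to Smoc2 (r = 0.913), a secreted matrix protein gene, and Dkk4 to Asprv1 (r = 0.940) and Fgf20 (r = 0.911). Sostdc1 was closest to Col17a1 (r = 0.924), Krt5 (r = 0.918) and Krt14 (r = 0.913), all genes of basal epithelium, and Lef1 to Bcl11b (r = 0.835). Apcdd1 and Sp5 had too few UMIs to be compared in this way.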

How the data were processed

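For the single-cell libraries the authors used STAR, the mm10 genome and GENCODE genes plus Cre and EYFP, and deposited raw UMI counts per gene and barcode. They made the bulk counts per gene on exons with featureCounts, without strand and without normalization. Antibody counts were not used here. Barcodes with at least 100 genes and under 15% mitochondrial UMIs were kept (CITE-seq also under 2500 genes), and no doublet caller was run. Samples were grouped from their titles, with glands as replicates.

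UMI sums of whole glands, or of a cell type in glands with at least 10 such cells, were tested with edgeR 4.0.16 (quasi-likelihood, TMM, low-count filter, Benjamini-Hochberg over all genes tested), with sex and stage as covariates (sex alone within a stage, none for CITE-seq). DESeq2 1.42.0 was an alternative. Single genes were compared by two-sided permutation of CPM per gland (scaled by library size), unadjusted, with TMM-scaled CPM, CPM over all barcodes and the removal of 2 libraries as alternatives. The tests were checked on simulated counts. Cells were clustered (scanpy 1.11.5, 2000 variable genes, 30 components, Leiden resolution 1.0) without the 9 genes. The neighbour graph, of 20 neighbours, was settled after the clusters had been seen. Counting intervals are exact 95% intervals, and 3 counts stand for a count of 0. Depth per gland limits sparse genes.

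The 9 genes are named in every comparison, other Wnt genes only when called in whole glands or basal-like cells, at most the 10 largest changes in each. Genes and lists were chosen with earlier results of these data known. Sequences of some of the genes were not used here.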

Additional observations from a re-analysis of the deposited data

Results flagged for a closer look

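Among 35 combinations of gene and gland group tested for a gland far from the others of its group, 10 had one. Where a single gland of a group held UMIs, it stood apart whatever its level. A rate of 1 in 20 is therefore no measure of chance for such sparse counts. Of the 10 combinations, 6 were in control groups, where 1 gland held a few UMIs and the others fewer or none. They were Axin2 in control P40 replicate 1 (3.44 CPM), Lef1 (5.59 CPM) and Wif1 (0.860 CPM) in the same gland, Apcdd1 in control P40 replicate 6 (0.256 CPM, 1 UMI), Dkk4 in control P90 replicate 5 (0.391 CPM, 1 UMI) and Sp5 in control P90 replicate 6 (0.575 CPM, 1 UMI).

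The other 4 were double-mutant glands with high levels. Notum stood out in double-mutant P40 replicate 5 (49.2 CPM) and in double-mutant P90 replicate 5 (75.2 CPM), Wif1 in double-mutant P40 replicate 2 (266 CPM) and Sostdc1 in double-mutant P90 replicate 4 (199 CPM). In P40 replicate 2, 13.8% of cells were basal tumor-like, and in P90 replicate 4, 24.5%, the highest shares of their groups.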

How the results depend on the processing

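Of 928 values of the log2 differences of the 9 genes under another setting, 842 kept their direction and side of the threshold, 36 passed it newly, 7 were lost and 43 changed sign, all of the last in the interaction or in the stage comparison of Wif1, where no gene was called. These sign changes were: Axin2 interaction, -0.87 thinned to equal depth; Dkk4 interaction, -0.18 without the library of high ribosomal share and -0.063 with the replicate block; Notum interaction, -0.091 without the pair of sex-mismatched libraries; Sostdc1 interaction, 0.10 with DESeq2, 0.030 without that pair and 1.52 thinned; Wif1 interaction, 0.46 thinned; and Wif1 stage, -0.31 and -0.031 under the settings named for Dkk4. Leaving out single glands, interactions ranged from -0.23 to 1.85 (Dkk4), -0.36 to 1.09 (Lef1), -0.36 to 1.06 (Nkd1), -0.45 to 0.74 (Notum), -1.05 to 0.18 (Sostdc1) and -1.43 to 0.18 (Wif1), and Wif1 stage from -0.31 to 0.57. The 6 genes called in whole glands stayed called in every alternative that tested them. Of 81 permutation results under another setting, 3 were lost, Sostdc1 at P90 with TMM-scaled CPM and, without the sex-mismatched pair, Sostdc1 and Dkk4 at P90. The cause of these shifts was not tested.

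Counts of called genes moved more. In whole glands (2308), they were 5583 with library size only, 3998 with the replicate block, 1044 thinned and 1663 to 3331 leaving out single glands, the highest without double-mutant P90 replicate 7. At P40 (26) they were 681 with DESeq2, 1657 unfiltered, 765 with the block, 15 without the sex-mismatched pair, 4 thinned and 7 to 551 leaving out glands. At P90 (446) they were 996, 1430, 1147 and 235 in that order, 825 with library size only, 684 without the library of high ribosomal share and 206 to 1651 leaving out glands. For stage (0), DESeq2 gave 3 and no filter 232, the latter with Nkd1 (adjusted p = 0.0149). For the interaction (1), they were 8, 189, 0 without the sex-mismatched pair, 3 without the ribosomal library, 3 thinned and 0 to 3 leaving out glands. In basal-like cells (130) they were 327 unfiltered, 80 with the number of cells as a covariate, 230 with the block, 99 to 165 leaving out glands and, chosen after seeing the data, 0 with 19 neighbours and 11 without the tumor sub-cluster. In CITE-seq (1379) they were 644 with DESeq2, 2356 unfiltered and 380 to 1050 leaving out glands. In cells outside the CSC-like and basal-like clusters (2151) they were 4698 with library size only and 2499 without double-mutant P90 replicate 1. A coarser clustering at resolution 0.7 named no basal-like cluster and gave no value. There a cluster of 1616 cells led by Krt14, Krt17 and Sostdc1 took the myoepithelial name.

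Replicate numbers did not pair the samples: over 12 same-numbered pairs, correlations of deviations from group means ran from -0.289 to 0.488, 5 were above 0.1, and own numbers correlated best in 2. The block called Lef1 in whole glands (1.71, adjusted p = 0.0113), Axin2, Nkd1, Notum and Sostdc1 at P40 and Sostdc1 at P90 (adjusted p = 0.0468). Of 270 shares of cells, 60 moved beyond their interval when cells were thinned to 300 or 1000 UMIs.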
